A study of Homo sapiens with 12 samples.

Results

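The change in gene expression that came with loading doxorubicin (DOX) onto a graphene oxide carrier was examined in Huh7 cells, an established human hepatocellular carcinoma line. GO-Rg3 is graphene oxide (GO) carrying the ginseng saponin Rg3, and GO-Rg3-DOX is that conjugate with DOX added. RNA was sequenced from 3 samples given GO-Rg3-DOX at 100 µg/mL and from 3 samples given GO-Rg3 at 400 µg/mL, each for 6 h. The doses are those of the whole conjugate, so the drug was added while the carrier dose was 4-fold lower, and the effect of one cannot be told apart from that of the other. The rest of the 12 samples were 3 of untreated cells and 3 given GO alone at 400 µg/mL, and cells given free DOX were not analysed here. A gene was compared if 3 or more of the 12 samples had 10 or more counts, which held for 17092 of 63677 genes. The labels do not say whether the 3 samples of a group came from separate cultures, so p-values measure the spread between these samples, which may be technical.

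DOX is an anthracycline that slides between the base pairs of DNA and traps topoisomerase II on the strands it has cut, which leaves double-strand breaks. It can also displace histones from chromatin, hinder RNA polymerases on their template, and pass electrons to oxygen through its quinone ring. Cells answer DNA breaks through the kinases ATM and ATR, which can halt the cell cycle and start repair or cell death. Liver cells reduce anthracyclines with carbonyl and aldo-keto reductases and export them through ABC transporters.

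The counts per sample, which are reads assigned to genes, were 30561558 to 32936070 after GO-Rg3-DOX and 27802871 to 34690207 after GO-Rg3. Levels are given as CPM, counts per 1000000 counts of the library, after TMM scaling, a method that sets the libraries on a common scale by the bulk of their genes. They are therefore shares of the RNA sequenced, and fewer cells of a type or less RNA per cell cannot be told apart. The composition of the libraries differed. Mitochondrially encoded genes held 15.4% ± 3.52 of the counts after GO-Rg3-DOX and 7.24% ± 0.301 after GO-Rg3 (SD, n = 3), and the 100 most abundant genes held 34.5% ± 2.99 and 22.7% ± 0.0593. Neither share overlapped between the groups (exact permutation test, two-sided, p = 0.1 for each, the smallest value that 3 against 3 samples allow). GO-Rg3-DOX replicate 1 stood apart from the other two in its mitochondrial share, at 19.4% against 13.9% and 12.8%. The mitochondrial share was 24.1%, 12.1% and 14.8% in the samples given GO alone, which overlapped that after GO-Rg3-DOX, and 5.31% to 6.28% in untreated cells. Huh7 markers were at high levels in both groups, with albumin (ALB) at 3478 ± 375 CPM after GO-Rg3 and 6144 ± 1017 CPM after GO-Rg3-DOX. Of 12 markers of blood cells only 4 passed the filter on counts, and the leukocyte marker PTPRC was not among them.

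Between GO-Rg3-DOX and GO-Rg3, 2144 genes were overexpressed (12.5% of those tested) and 3095 were under-expressed (18.1%), at an adjusted p below 0.01 and a log2 fold change beyond 1 in either direction (quasi-likelihood test of edgeR, adjusted by Benjamini and Hochberg's method). Shares of called members in the gene groups below are read against these percentages. Without the threshold on fold change 4685 genes were higher and 5069 lower. CPM ranges of the 3 against 3 samples did not overlap for 70.3% of all genes tested. Genes that rose had a median of 1.15 CPM after GO-Rg3, while those that fell had a median of 17.4 CPM, against 11.8 CPM for all genes. The risen genes together held 16.2% of the CPM in the GO-Rg3 samples and 31.2% in those with DOX, and the fallen genes 11.9% and 3.06%. The genes were called on these same samples, so the direction of both changes was fixed by the calls. The medians too reflect the selection, since after GO-Rg3 risen genes are low and fallen genes high by the calls. The balance of rises and falls depended on the scaling. Scaled by library totals alone, which moved the median of all log2 fold changes from -0.00 to -0.45, 891 genes were higher and 4986 lower, and scaled by the upper quartile, which moved it to 0.20, 3183 were higher and 2339 lower. No gene was called in opposite directions by any of these settings. Leaving out GO-Rg3-DOX replicate 1 gave 1930 overexpressed and 2938 under-expressed genes.

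Against untreated cells, GO-Rg3 alone changed few genes. It overexpressed 3 of 17092 genes (0.0176%) and under-expressed 8 (0.0468%) by the same test and thresholds, and 2282 had an unadjusted p below 0.05. Among the 8 were the BMP target ID3 and the Wnt inhibitor DKK1. GO-Rg3-DOX against the same untreated samples gave 2158 overexpressed (12.6%) and 3102 under-expressed genes (18.1%). Both comparisons of GO-Rg3-DOX share its 3 samples and are not independent.

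**Figure D1:**
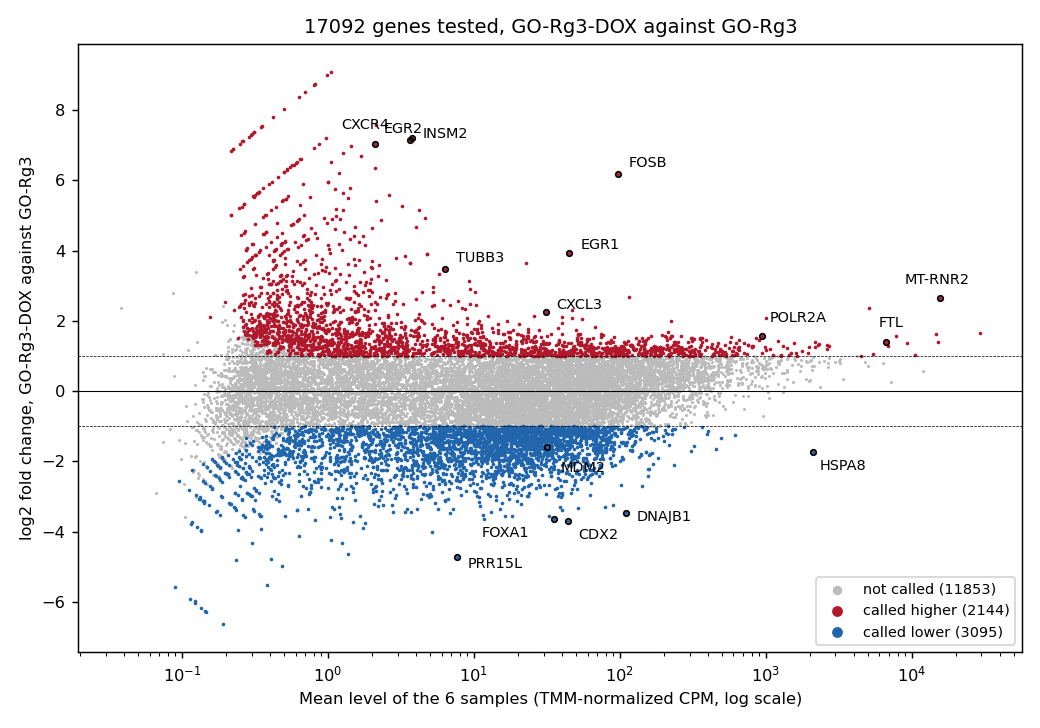
Log2 fold change of GO-Rg3-DOX against GO-Rg3 for each of the 17092 genes tested, plotted against the mean TMM-normalized CPM of the 6 samples on a log axis, with dashed lines at a log2 fold change of 1 and -1. The 3095 genes called lower lie mostly above 1 CPM, whereas many of the 2144 called higher lie at low CPM, where rows of points come from genes with 0 to few counts in the GO-Rg3 samples.

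The known targets of DOX and the proteins that handle it were examined first. None of the 8 topoisomerase and tyrosyl-DNA phosphodiesterase genes passed the thresholds, while 2 were lower with library totals. TOP2A, the topoisomerase II of dividing cells and the main target of DOX, was at 337, 423 and 356 CPM in the 3 GO-Rg3 samples and at 317, 335 and 349 CPM in the 3 GO-Rg3-DOX samples. The groups overlapped, with a log2 fold change of -0.15 (SE 0.17, edgeR adjusted p = 0.43). TOP2B, the isoform of resting cells, stood at 185 ± 16.5 CPM after GO-Rg3 and 238 ± 28.7 CPM after GO-Rg3-DOX (log2 fold change 0.36), and TOP1 at 247 ± 16.7 and 264 ± 21.4 CPM (0.10). TOP1MT of the mitochondrion had a log2 fold change of 0.61. The other members lay lower after GO-Rg3-DOX without reaching the threshold on fold change, with -0.85 for TOP3A, -0.55 for TOP3B and -0.73 for TDP1, which removes trapped topoisomerase I. TDP2, which removes trapped topoisomerase II, was at -0.06. The median of the group was -0.11, against -0.00 for all genes, and -0.55 with library totals and 0.10 with the upper quartile.

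Of 12 enzymes known to reduce anthracyclines, 4 rose and none fell, all of them aldo-keto reductases of the AKR1C family. AKR1C1 was at 20.6, 23.5 and 23.6 CPM after GO-Rg3 and at 45.6, 45.6 and 47.3 CPM after GO-Rg3-DOX, so every treated sample lay above every GO-Rg3 sample (log2 fold change 1.03, SE 0.09, edgeR adjusted p = 1.6e-07). AKR1C2 rose from 8.33 ± 0.909 to 17.1 ± 2.52 CPM (log2 fold change 1.03), AKR1C3 from 0.784 ± 0.239 to 1.80 ± 0.337 CPM (1.20) and AKR1C4 from 0.613 ± 0.0576 to 1.26 ± 0.368 CPM (1.03). These 4 genes are related in sequence to differing degrees, and some reads of one may have been counted for another. These rises lay near the threshold, and none passed with library totals. AKR1C2 alone stayed called without GO-Rg3 replicate 1, AKR1C2 and AKR1C3 lost their call without GO-Rg3-DOX replicate 1 and AKR1C2 without GO-Rg3 replicate 2, and AKR1C4 lost it in 5 of the 6 fits that left out a sample (0.79 to 1.07), all but that without GO-Rg3-DOX replicate 1. Against untreated cells GO-Rg3-DOX stood at 0.59, 0.68, 0.77 and 0.56 for AKR1C1 to AKR1C4, below the threshold on fold change, and GO-Rg3 at -0.44, -0.35, -0.43 and -0.47. The carbonyl reductase CBR1 was at 12.6 ± 1.12 and 16.2 ± 1.71 CPM (log2 fold change 0.37). NQO1 stood at 0.55, NQO2 at 0.82, POR at 0.83, AKR1A1 at 0.65, AKR1B1 at 0.87, AKR1B10 at 0.53 and XDH at 0.34 on the log2 scale, none of them called. POR reached 1.03 and was called without GO-Rg3 replicate 1.

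No transporter was called either, among 7 tested. ABCB1, the P-glycoprotein that pumps DOX out of cells, was at 293, 327 and 295 CPM after GO-Rg3 and 409, 375 and 398 CPM after GO-Rg3-DOX. The ranges did not overlap, but the difference was small (log2 fold change 0.37, SE 0.10, edgeR adjusted p = 0.0048). ABCC3 had the largest difference, from 68.2 ± 3.82 to 111.97 ± 4.76 CPM (log2 fold change 0.72). The values were 0.37 for ABCC1, 0.33 for ABCG2, 0.27 for ABCC6 and 0.04 for ABCC2. The median of the transporters was 0.33 and turned to -0.11 with library totals.

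FOSB and EGR1 had the largest rises among genes with a mean of at least 5 CPM over the 6 samples. Both are immediate early genes, whose transcripts are short-lived and are known to be made within minutes of a mitogen or stress. Of 32 such genes, 10 rose and 8 fell. The proximal promoters of the leading pair are shown first, since both carry elements known to bind general or serum-response factors. Each run holds the 120 bases before the RefSeq transcription start (GRCh38.p14), read 5′ to 3′ on the strand of the gene. Capitals mark TATAAA in FOSB (chr19:45467876-45467995, plus strand), the core of the TATA box, and the CArG boxes (CC, then 6 bases of A or T, then GG) in EGR1 (chr5:138465359-138465478, plus strand), the element that serum response factor is known to bind.
FOSB: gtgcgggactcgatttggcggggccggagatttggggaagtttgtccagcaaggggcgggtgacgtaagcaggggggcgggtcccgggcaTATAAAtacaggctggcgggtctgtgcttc
EGR1: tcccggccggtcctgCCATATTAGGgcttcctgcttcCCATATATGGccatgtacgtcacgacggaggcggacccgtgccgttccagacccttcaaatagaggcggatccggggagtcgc
TATAAA lay 30 bases before the start of FOSB, and the 2 CArG boxes of EGR1 began 105 and 83 bases before its start. On either strand of the whole window from 250 bases before to 50 bases after the start, TATAAA was in 6.13% of the 10499 promoters of tested genes, in 10.1% of those of overexpressed and in 4.58% of those of under-expressed genes. A CArG box was in 1.06%, 1.54% and 0.820% of them. Among 9 overexpressed immediate early genes with a promoter in the table, FOS, FOSB and JUNB held TATAAA, and EGR1 alone held a CArG box. A match is a run of letters and does not show binding.

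FOSB, a partner in the AP-1 transcription factor, lies on chromosome 19 from 45971253 to 45978437 on GRCh37. It was at 2.97, 2.22 and 2.73 CPM in the GO-Rg3 samples and at 199, 181 and 193 CPM in the GO-Rg3-DOX samples. All 3 treated samples stood far above the others, a 72.1-fold rise (log2 fold change 6.17, SE 0.12, edgeR adjusted p = 7.4e-14). EGR1, a zinc finger transcription factor on chromosome 5 from 137801168 to 137804992 (GRCh37), went from 5.62, 4.95 and 5.94 CPM to 85.8, 81.8 and 85.9 CPM. This 15.3-fold rise was close to equal in the 3 samples (log2 fold change 3.94, SE 0.15, edgeR adjusted p = 7.8e-11). Its relatives EGR2 and EGR3 were nearly silent after GO-Rg3. EGR2 had 1, 0 and 2 counts in the GO-Rg3 samples and 64 to 140 counts in the GO-Rg3-DOX samples. Its mean CPM after GO-Rg3-DOX was 48.9-fold that of 3 counts per GO-Rg3 library. EGR3 had 0, 2 and 0 counts against 58, 52 and 85, or 29.4-fold by the same measure. Smaller rises were measured for ATF3, a stress-induced transcription factor, from 19.7 ± 0.904 to 60.3 ± 7.26 CPM (log2 fold change 1.61), and for FOS, from 6.43 ± 0.814 to 16.7 ± 2.58 CPM (1.38). JUNB rose from 3.83 ± 1.89 to 10.9 ± 3.29 CPM (1.49) and NR4A3, an orphan nuclear receptor, from 0.275 ± 0.0610 to 1.99 ± 0.372 CPM (2.85).

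Other genes of the same class fell. ZFP36L2, which binds AU-rich elements and speeds the decay of mRNAs, was at 168, 164 and 154 CPM after GO-Rg3 and at 19.6, 15.4 and 16.8 CPM after GO-Rg3-DOX. The fall was 9.38-fold and without overlap (log2 fold change -3.23, SE 0.12, edgeR adjusted p = 4.3e-11). JUND fell from 57.5 ± 15.8 to 12.4 ± 3.83 CPM (log2 fold change -2.22), and FOSL2 from 48.96 ± 4.34 to 21.7 ± 2.89 CPM (-1.17), so the members of AP-1 moved in both directions. MYC, a driver of growth, fell from 60.03 ± 8.26 to 19.8 ± 2.94 CPM (log2 fold change -1.60, SE 0.14, edgeR adjusted p = 8.7e-08), and KLF6 from 89.8 ± 3.22 to 38.6 ± 6.002 CPM (-1.22). The median of the group was -0.10 and changed sign between scalings, -0.54 with library totals and 0.11 with the upper quartile.

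**Figure D2:**
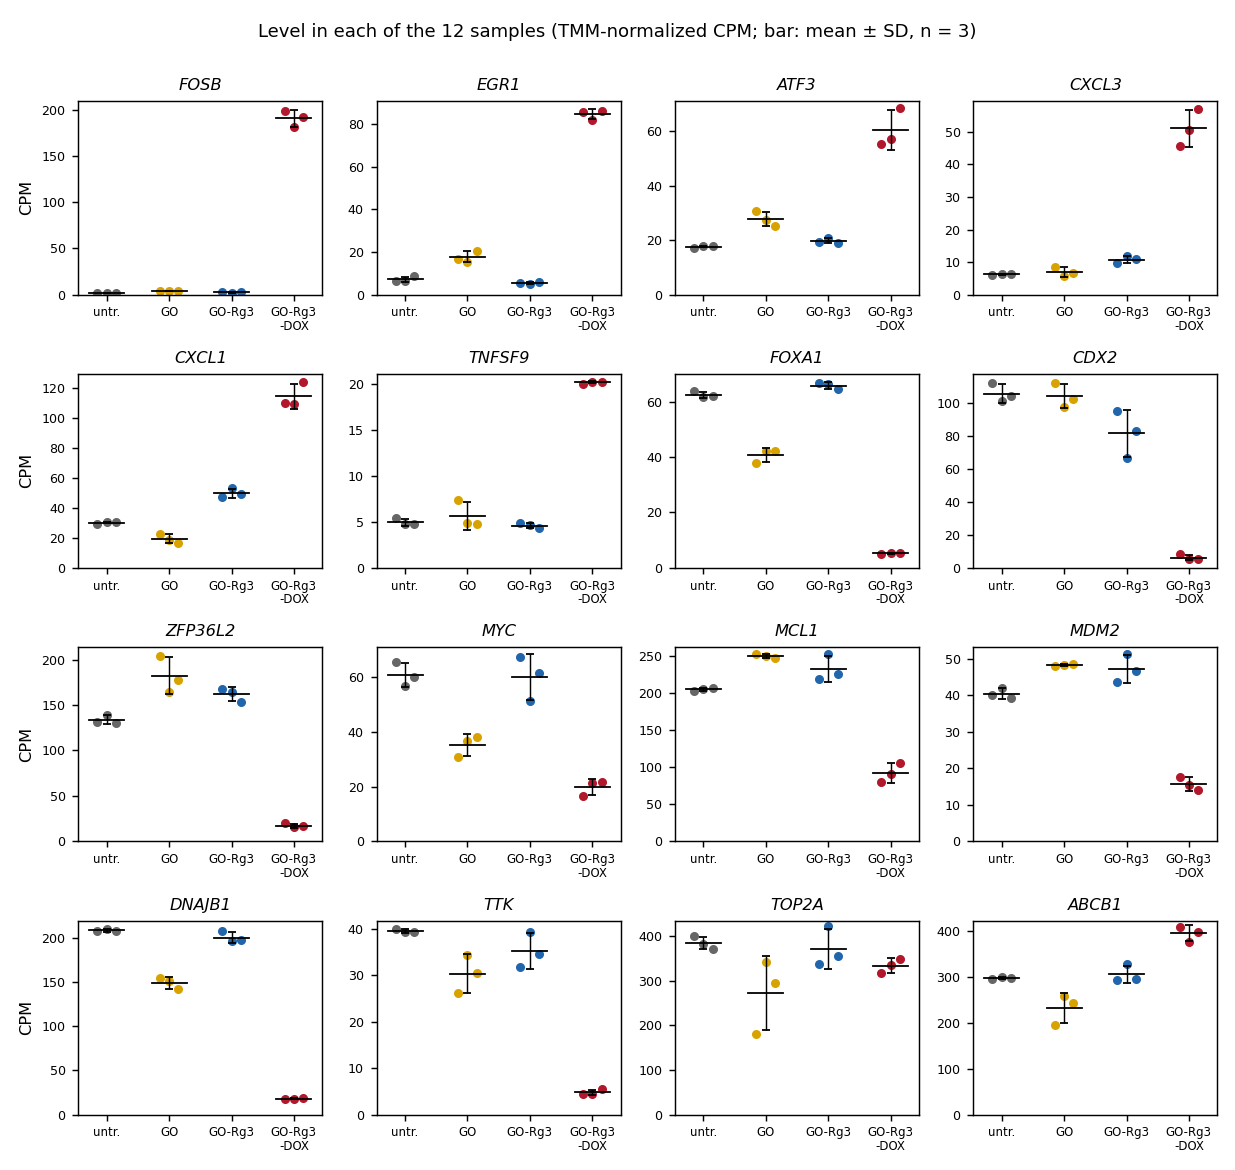
TMM-normalized CPM of 16 genes in each of the 12 samples (points), with the mean and SD of each group of 3 (bars), on axes that start at 0. FOSB, EGR1 and CXCL3 are high in the GO-Rg3-DOX samples alone, FOXA1, CDX2, DNAJB1 and TTK are low there, and TOP2A and ABCB1 differ little between GO-Rg3 and GO-Rg3-DOX.

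Inflammatory genes followed no single direction. Of 29 targets and regulators of NF-κB, 6 rose and 7 fell (median -0.19, -0.64 with library totals and 0.01 with the upper quartile). The group's median after GO-Rg3 against untreated cells was 0.57, without any member called. The chemokines CXCL1, CXCL2 and CXCL3, which attract neutrophils, are neighbours on chromosome 4 and rose together. The 120 bases before their RefSeq starts are shown because all 3 hold the same element of 9 bases, GGAATTTCC, a form of the κB site, in capitals (GRCh38.p14, CXCL1 chr4:73869273-73869392 on the plus strand, CXCL2 chr4:74099196-74099315 and CXCL3 chr4:74038690-74038809 on the minus strand).
CXCL1: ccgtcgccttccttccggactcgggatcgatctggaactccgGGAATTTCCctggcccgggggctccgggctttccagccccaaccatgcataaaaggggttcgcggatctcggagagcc
CXCL2: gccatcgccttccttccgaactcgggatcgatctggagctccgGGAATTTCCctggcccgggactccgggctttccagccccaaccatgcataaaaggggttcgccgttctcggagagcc
CXCL3: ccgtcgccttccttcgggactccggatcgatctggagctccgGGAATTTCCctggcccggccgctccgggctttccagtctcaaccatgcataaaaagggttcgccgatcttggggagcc
The element began 78, 77 and 78 bases before the starts of CXCL1, CXCL2 and CXCL3, and the longest run that the 3 windows shared was 23 bases. It was found on either strand in 49 of 10499 promoters (0.467%). Those of 7 overexpressed genes held it, CXCL1, CXCL2, CXCL3, COL7A1, SLC9A5, TMEM106A and UBL7, and those of 9 under-expressed genes, among them CXCL5, CXCL6, NFKBIA and NFKBIZ. The element was thus in genes of both directions, in 0.597% of overexpressed and 0.434% of under-expressed genes with a promoter.

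CXCL3 was at 9.60, 11.7 and 10.96 CPM after GO-Rg3 and at 45.7, 50.6 and 57.1 CPM after GO-Rg3-DOX. Its 3 treated samples lay well above the others (log2 fold change 2.25, SE 0.14, edgeR adjusted p = 4.8e-09). CXCL1 rose from 49.9 ± 3.08 to 114.5 ± 8.42 CPM (log2 fold change 1.20) and CXCL2 from 10.6 ± 1.85 to 24.4 ± 2.70 CPM (1.20), and in untreated cells these 3 genes were at 6.27 ± 0.134, 30.3 ± 0.541 and 7.02 ± 0.365 CPM in the order CXCL3, CXCL1, CXCL2. They are close copies, so their reads may be shared, and the calls of CXCL1 and CXCL2 ended with library totals (0.76 and 0.76) or an offset for length (0.87 and 0.85). CXCL5, a chemokine of the same cluster, moved the other way, from 642, 766 and 694 CPM to 223, 279.9 and 337 CPM (log2 fold change -1.32, SE 0.14, edgeR adjusted p = 6.5e-07), although not past the threshold with an offset for GC content (-0.70). Untreated cells had 501 ± 19.9 CPM of CXCL5, from which GO-Rg3-DOX differed by -0.84, short of the threshold on fold change. TNF, the cytokine that gives the pathway its best known signal, rose from 0.642 ± 0.0621 to 2.44 ± 0.124 CPM (1.92), and IL6 from 0.0712 ± 0.0721 to 0.950 ± 0.281 CPM (3.61), both at low levels. Members of the IκB family, which NF-κB is known to induce, fell. NFKBIZ went from 149 ± 26.1 to 35.02 ± 6.73 CPM (-2.09), BCL3 from 39.5 ± 9.87 to 13.6 ± 0.466 CPM (-1.54) and NFKBIA from 47.8 ± 4.25 to 22.7 ± 3.02 CPM (-1.07), the last just short of a call without GO-Rg3 replicate 3. The apoptosis inhibitor BIRC3 fell from 15.4 ± 0.987 to 4.03 ± 0.138 CPM (-1.93), with 7.78 ± 0.861 CPM in untreated cells. Of 22 interferon-stimulated genes 4 rose and 2 fell. IFI27 rose from 1.20 ± 0.167 to 9.36 ± 2.01 CPM (2.96) and ISG15 from 4.96 ± 2.12 to 17.3 ± 2.51 CPM (1.79), while IFIT5, an RNA-binding effector, fell to 0.768 ± 0.199 CPM (-2.21).

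Some tested genes were detected in one of the compared groups almost alone, which the filter on counts favoured. A gene with 3 or fewer counts in each sample of one group could pass only through its level in other groups. The numbers below therefore do not describe the genes left out. In the 3 GO-Rg3 samples 162 tested genes had 3 or fewer counts each, and the 5 with the highest level after GO-Rg3-DOX were INSM2, CXCR4, AC098823.3, EGR2 and DLX2. INSM2, a zinc finger repressor of neuroendocrine cells, had 1, 3 and 1 counts after GO-Rg3 and 120, 239 and 229 after GO-Rg3-DOX, at least 87.4-fold higher. CXCR4, the receptor of the chemokine CXCL12, had 2, 2 and 1 counts against 139, 220 and 213, at least 85.4-fold higher. DLX2, a homeobox gene of the developing forebrain, had 2, 1 and 0 counts against 81, 91 and 89, at least 39.3-fold higher. AC098823.3 has no described function, and it was at least 50.2-fold higher. SELE, the adhesion molecule of activated endothelium, followed at least 33.6-fold higher, with 1, 1 and 0 counts against 56, 84 and 85. In the other direction 165 tested genes had 3 or fewer counts in each GO-Rg3-DOX sample. The 5 with the highest level after GO-Rg3 were CTD-2555O16.4, LL22NC03-2H8.5, RP11-51F16.9, LYL1 and RP11-510N19.5. LYL1, a basic helix-loop-helix factor of blood progenitors, had 32, 23 and 32 counts after GO-Rg3 and 3, 3 and 2 after GO-Rg3-DOX, at least 7.02-fold lower. The 4 others bear only clone names and were at least 6.89-fold to 10.3-fold lower. Each bound sets the mean CPM of the higher group against 3 counts per library in the other, so single samples can lie below it. Counting error is not included. The reads carry no molecular identifiers, so several may stem from 1 molecule. LYL1 had 2 to 3 counts after GO-Rg3-DOX, and its edgeR estimate was 7.69-fold lower.

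Among genes with a mean of at least 5 CPM over the 6 samples, TUBB3, PTX3, CCDC17, IFI27, FAM229A, HBEGF and FOXC1 joined FOSB and EGR1 among the 10 largest rises, with an rRNA pseudogene as the other. TUBB3, a tubulin of neurons, was at 1.19, 0.868 and 1.06 CPM after GO-Rg3 and 9.48, 12.8 and 12.5 CPM after GO-Rg3-DOX (log2 fold change 3.47, SE 0.23, edgeR adjusted p = 5.4e-09). PTX3, a secreted pattern-recognition protein, rose from 1.04 ± 0.0312 to 10.52 ± 3.24 CPM (log2 fold change 3.34), and HBEGF, a ligand of the EGF receptor, from 2.53 ± 0.155 to 17.7 ± 0.25003 CPM (2.81). The log2 fold changes were 3.14 for CCDC17, 2.90 for FAM229A and 2.81 for the forkhead factor FOXC1. Many of the 231 genes named here overlap an annotated gene on the other strand, FOSB, TUBB3, PTX3, FOXA1, MCL1, MDM2, POLH, PPM1D, HNF4A and DNAJB1 among them. Whether strand was used in counting is not given in the sources used here, so their levels are uncertain to the extent that the partner is expressed.

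Of the 10 largest falls 6 were those of transcription factor genes. The 10 were PRR15L, ZNF792, CDX2, FOXA1, ZNF260, TMEM177, ISX, ZNF639, KBTBD6 and DNAJB1. CDX2, the homeobox factor that defines intestinal epithelium, lies on chromosome 13 from 28535055 to 28543452 (GRCh37). It was at 95.2, 66.7 and 82.9 CPM after GO-Rg3 and at 8.20, 5.21 and 5.49 CPM after GO-Rg3-DOX (log2 fold change -3.70, SE 0.17, edgeR adjusted p = 2.2e-10). ISX, an intestinal homeobox gene that CDX2 is known to regulate, went from 61.04, 60.7 and 58.98 CPM to 5.48, 5.39 and 4.54 CPM. It too fell in all 3 samples (log2 fold change -3.55, SE 0.11, edgeR adjusted p = 6.6e-12). PRR15L, the largest fall, went from 14.4, 14.3 and 15.3 CPM to 0.783, 0.467 and 0.419 CPM (log2 fold change -4.72, SE 0.17, edgeR adjusted p = 4.3e-11). The log2 fold changes were -3.57 for the mitochondrial protein gene TMEM177 and -3.53 for the ubiquitin ligase adaptor KBTBD6.

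Of 29 transcription factors that define hepatocytes, 16 fell and none rose, with a median log2 fold change of -1.03. FOXA1, the pioneer factor that opens liver chromatin, lies on chromosome 14 from 38058757 to 38065264 (GRCh37). It was at 66.7, 66.2 and 64.5 CPM after GO-Rg3 and at 5.19, 5.32 and 5.22 CPM after GO-Rg3-DOX. The 3 samples of each group agreed closely and the fall was 12.5-fold (log2 fold change -3.65, SE 0.10, edgeR adjusted p = 2.4e-12). FOXA3 fell from 40.7 ± 6.502 to 6.23 ± 0.578 CPM (log2 fold change -2.71), CEBPG from 94.5 ± 9.30 to 19.3 ± 0.866 CPM (-2.29), GATA6 from 40.2 ± 2.72 to 9.53 ± 0.831 CPM (-2.08) and the orphan receptor NR2F2 from 39.4 ± 1.43 to 10.1 ± 0.870 CPM (-1.96). HNF4A, a regulator of many hepatocyte genes, was near the threshold, at 417, 322 and 363 CPM after GO-Rg3 and 209, 172 and 158 CPM after GO-Rg3-DOX (log2 fold change -1.03, SE 0.11, edgeR adjusted p = 1.4e-06). It was not called without GO-Rg3-DOX replicate 2, where it lay just short of the threshold, or 3 (-0.95), without GO-Rg3 replicate 1 (-0.93), or with the size factors of DESeq2 (-0.99).

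The zinc finger genes named ZNF held the most fallen members of any group examined. Of 437 tested, 260 fell (59.5%, against 18.1% of all genes) and 6 rose, with a median log2 fold change of -1.27. Many genes of this name encode KRAB proteins, which silence transposable elements and genes. The group was drawn by gene name, and which members encode such proteins was not examined. The number that fell was 335 with library totals, 226 with the upper quartile and 216 with an offset for GC content. ZNF792 was at 9.89, 10.2 and 9.19 CPM after GO-Rg3 and 0.494, 0.503 and 0.801 CPM after GO-Rg3-DOX (log2 fold change -4.02, SE 0.17, edgeR adjusted p = 1.3e-10). ZNF639 fell from 33.7 ± 4.10 to 2.88 ± 0.495 CPM (log2 fold change -3.55), ZNF260 from 21.8 ± 2.25 to 1.75 ± 0.340 CPM (-3.64), ZNF691 from 11.4 ± 0.361 to 1.29 ± 0.0951 CPM (-3.14) and ZNF445, known to guard imprinted genes, from 88.7 ± 10.4 to 12.7 ± 0.875 CPM (-2.80). Of the 6 that rose, ZNF580 went from 3.43 ± 0.307 to 14.6 ± 2.04 CPM (2.08) and ZNF358 from 7.69 ± 3.79 to 23.7 ± 7.41 CPM (1.62).

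Several smaller families of regulators and feedback inhibitors had more fallen than risen members. Of 15 ID genes and inhibitors of TGF-β and BMP signalling 11 fell and none rose (median -1.22). ID1, which blocks basic helix-loop-helix factors, fell from 146, 97.8 and 130.5 CPM to 24.2, 26.1 and 24.6 CPM in all 3 samples (log2 fold change -2.32, SE 0.13, edgeR adjusted p = 1.3e-09). ID3 fell from 65.1 ± 10.97 to 9.53 ± 1.74 CPM (log2 fold change -2.77), from a level that GO-Rg3 had already lowered from 153 ± 7.36 CPM in untreated cells. The SMAD inhibitors SKI (-2.28) and SMAD7 (-1.69) fell as well. Of 20 Krüppel-like and SP factors 9 fell and 1 rose (median -0.94), and 4 fell with an offset for length. SP3 fell from 116.3 ± 8.52 to 30.3 ± 3.28 CPM (-1.94) and KLF5 from 119.2 ± 6.69 to 46.7 ± 4.61 CPM (-1.35), while SP6, a factor of ectoderm and teeth, rose from 2, 1 and 2 counts to 2.77 ± 0.180 CPM, at least 32.6-fold higher. Of 15 phosphatases and Sprouty genes that restrain MAP kinases 5 fell and 1 rose, with SPRY1 at -3.03 and SPRY2 at -2.69, while 8 fell when GO-Rg3-DOX replicate 3 was left out and 13 with library totals. Of 19 targets of YAP and TEAD 9 fell and 1 rose (median -0.96). DLC1, a tumour suppressor, fell from 96.2 ± 3.45 to 18.7 ± 1.73 CPM (-2.36), and AJUBA (-1.74) and TEAD1 itself (-1.45) fell too. The 71 homeobox genes tested were mixed, with 10 higher (14.1%) and 17 lower (23.9%, and 30 with library totals). SIX4 rose from 3.17 ± 0.504 to 17.4 ± 2.52 CPM (2.46), while HHEX, needed for the liver bud, fell from 75.4 ± 3.16 to 19.8 ± 2.37 CPM (-1.93).

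**Figure D3:**
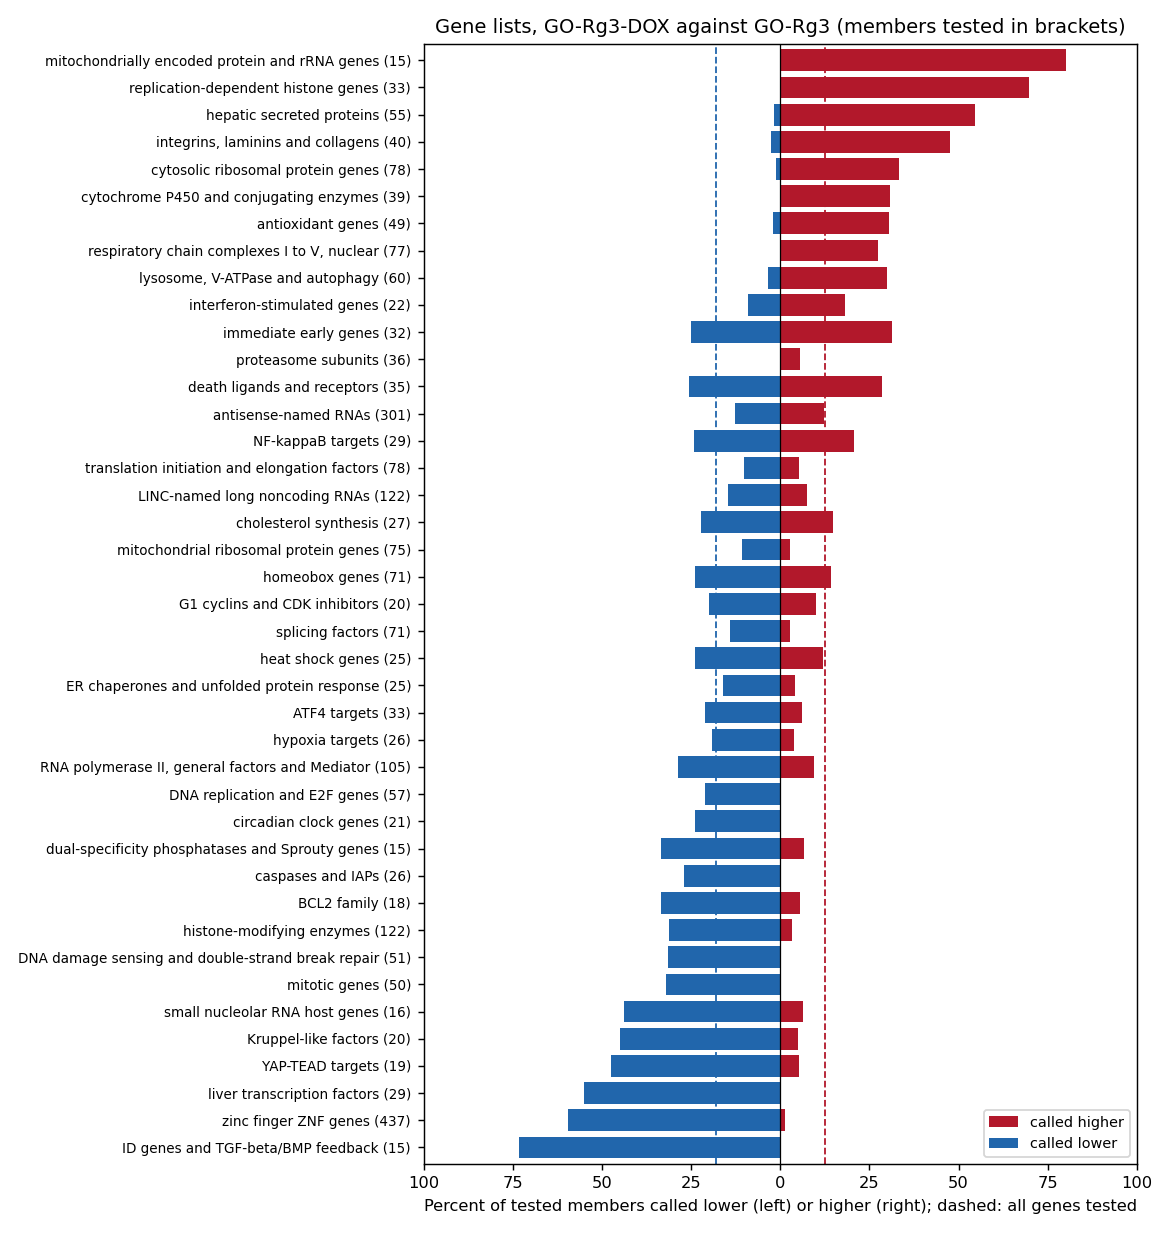
Percent of tested members called higher (red, right) or lower (blue, left) in gene lists with at least 15 tested members. The p53 targets and the genes that the study named are not plotted. Dashed lines mark the shares among all 17092 genes, 12.5% and 18.1%. ID genes, ZNF genes and liver transcription factors lie at the bottom, with 55.2% to 73.3% of members lower, and mitochondrially encoded genes, histone genes and hepatic secreted proteins at the top, with 54.5% to 80% higher.

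Genes that decide on cell death were examined next. Of 18 members of the BCL2 family 6 fell and 1 rose (median -0.28), whereas with the upper quartile 2 fell and 4 rose. MCL1, a protector of the mitochondrial membrane with a short-lived protein, was at 219.6, 253 and 225 CPM after GO-Rg3 and at 79.8, 91.5 and 106.3 CPM after GO-Rg3-DOX (log2 fold change -1.33, SE 0.10, edgeR adjusted p = 3.3e-08). BCL2L1, which encodes the protector BCL-XL, went from 637, 481 and 544 CPM to 259, 248.8 and 252 CPM. It fell in every sample (log2 fold change -1.13, SE 0.10, edgeR adjusted p = 1.3e-07). BAD, a pro-apoptotic member that binds such protectors, rose from 0.732 ± 0.264 to 2.45 ± 0.366 CPM (1.72). BAX, which opens the mitochondrial membrane, stood at 0.89 and was called without GO-Rg3 replicate 1 (1.02), where 3 members rose, and with the upper quartile (1.10).

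No gene rose among 26 caspases, their inhibitors and partners, and 7 fell (median -0.37), or 4 with an offset for GC content (median -0.05) or for length. CASP2, an initiator caspase, fell from 87.7, 86.9 and 86.8 CPM to 38.03, 34.7 and 35.4 CPM (log2 fold change -1.27, SE 0.09, edgeR adjusted p = 9e-09). The caspase inhibitor XIAP fell from 46.9 ± 5.05 to 17.5 ± 0.465 CPM (log2 fold change -1.42) and DFFB, the nuclease that cuts DNA in apoptosis, from 7.17 ± 0.638 to 1.72 ± 0.214 CPM (-2.06). FADD, the adaptor of death receptors, fell to 0.634 ± 0.194 CPM (-2.45). With an offset for length CASP2 (-0.99) and XIAP (-0.91) were no longer called, and with one for GC content XIAP (-0.87) was not.

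Ligands and receptors of the TNF superfamily moved apart. Of 35 ligands, receptors and adaptors 10 rose and 9 fell (median -0.16, -0.61 with library totals and 0.04 with the upper quartile). TNFSF9, the ligand of the T cell co-stimulator 4-1BB, was at 4.89, 4.63 and 4.30 CPM after GO-Rg3 and at 20.1, 20.2 and 20.3 CPM after GO-Rg3-DOX (log2 fold change 2.13, SE 0.15, edgeR adjusted p = 1.5e-08). LTA, another ligand, rose from 3 or fewer counts per GO-Rg3 sample to 0.815 ± 0.0734 CPM. TNFRSF1A, the main receptor of TNF, fell from 94.3, 69.1 and 83.1 CPM to 12.7, 11.5 and 11.4 CPM. This was the largest fall of the group (log2 fold change -2.79, SE 0.13, edgeR adjusted p = 2e-10). TNFRSF10D, a decoy receptor of TRAIL, rose from 119.03 ± 1.59 to 262 ± 13.96 CPM (1.14).

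Of 33 known targets of p53, a transcription factor of the DNA damage response that is mutant in Huh7 cells, 3 rose (9.09%), 8 fell (24.2%) and 22 were not called. Their median was -0.02, -0.45 with library totals and 0.19 with the upper quartile. MDM2, a ubiquitin ligase, was at 43.6, 51.3 and 46.6 CPM after GO-Rg3 and at 17.7, 15.3 and 14.1 CPM after GO-Rg3-DOX. All 3 treated samples were lower (log2 fold change -1.59, SE 0.11, edgeR adjusted p = 7e-09). The phosphatase PPM1D, which shuts down the damage response, fell from 18.05 ± 0.564 to 6.56 ± 1.09 CPM (log2 fold change -1.46), and the translesion polymerase gene POLH from 12.4 ± 0.504 to 4.005 ± 0.232 CPM (-1.63). CDKN1A, the cell cycle inhibitor p21, was at 15.8, 13.6 and 15.1 CPM against 23.3, 26.02 and 26.4 CPM. It was higher in every treated sample but below the threshold on fold change (log2 fold change 0.76, SE 0.10, edgeR adjusted p = 1.2e-05). Untreated cells had 22.2 ± 0.791 CPM, from which GO-Rg3-DOX differed by 0.18 and GO-Rg3 by -0.58 on the log2 scale, neither of them called. FDXR, a mitochondrial reductase, rose from 7.58 ± 2.05 to 15.97 ± 0.845 CPM (1.07) and BTG2, which slows proliferation, from 18.1 ± 0.586 to 36.5 ± 7.62 CPM (1.01). Cells given GO alone were at 9.70 CPM for FDXR and 30.1 CPM for BTG2. FDXR was not called without GO-Rg3 replicate 2 (0.88), nor BTG2 without GO-Rg3-DOX replicate 3 (0.85) or GO-Rg3 replicate 1 (0.99).

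Genes of DNA repair, replication and mitosis either fell or were not called, with counts and medians that depended on the scaling. Of 51 genes that sense DNA damage or repair double-strand breaks 16 fell and none rose (median -0.58). With library totals 27 of them fell, and the median was -0.13 with an offset for GC content and -0.22 with one for length, where 3 rose. FANCF, of the Fanconi anaemia complex that repairs crosslinks, fell from 12.7, 13.5 and 14.2 CPM to 2.27, 2.01 and 2.55 CPM (log2 fold change -2.57, SE 0.13, edgeR adjusted p = 4.1e-10). RAD52 fell from 18.8 ± 1.38 to 4.96 ± 0.418 CPM (log2 fold change -1.93), and the nuclease gene EXO1 from 40.98 ± 4.003 to 9.14 ± 1.13 CPM (-2.16). Among 57 replication and E2F genes 12 fell and none rose, a share of 21.1% that lay near the 18.1% of all genes (median -0.30). The number that fell was 25 with library totals and 8 with an offset for GC content (median -0.04), and 4 of them rose without GO-Rg3 replicate 1. DTL, which marks licensing factors for degradation, fell from 53.1 ± 1.10 to 15.03 ± 0.661 CPM (-1.82), POLD3 from 38.02 ± 2.77 to 9.13 ± 0.826 CPM (-2.06) and the phosphatase CDC25A from 125.9 ± 2.01 to 45.9 ± 0.497 CPM (-1.46).

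Of 50 mitotic genes 16 fell and none rose (median -0.51, -0.23 with an offset for GC content), and 25 fell with library totals. TTK, the kinase of the spindle checkpoint, was at 31.7, 39.3 and 34.6 CPM after GO-Rg3 and at 4.53, 4.53 and 5.45 CPM after GO-Rg3-DOX, low in all 3 treated samples (log2 fold change -2.86, SE 0.14, edgeR adjusted p = 2.8e-10). The spindle motor KIF11 fell from 77.1 ± 4.41 to 20.6 ± 1.51 CPM (log2 fold change -1.90) and CDCA8, of the chromosomal passenger complex, from 108.05 ± 6.27 to 37.3 ± 1.08 CPM (-1.54). WEE1, the kinase that holds cells before mitosis, went from 60.96, 72.1 and 64.1 CPM to 11.1, 10.2 and 13.002 CPM. It had the largest fall among 20 G1 cyclins, their kinases and inhibitors (log2 fold change -2.52, SE 0.12, edgeR adjusted p = 2.5e-10), of which 4 fell and 2 rose. The G1 kinase CDK6 (-1.20) and the pocket protein gene RBL1 (-1.92) fell, while CDKN2A (1.18) and CDKN2C (1.26), inhibitors of CDK4 and CDK6, rose. Cells given GO alone were at 16.6 CPM for CDKN2A and 8.99 CPM for CDKN2C, against 31.0 and 9.90 CPM after GO-Rg3-DOX.

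Most of the replication-dependent histone genes that were tested rose, and none fell. Of 89 with a symbol in the files, 33 passed the filter on counts, of which 23 were called higher, with a median log2 fold change of 1.61 (17 higher and a median of 1.17 with library totals). A histone gene that was low after GO-Rg3 could pass the filter through its rise, so these numbers do not describe the members left out. HIST2H2BE was at 2.24, 2.15 and 2.47 CPM after GO-Rg3 and at 8.90, 9.67 and 10.52 CPM after GO-Rg3-DOX (log2 fold change 2.08, SE 0.13, edgeR adjusted p = 3.8e-09). HIST1H4H rose from 1.77 ± 0.131 to 7.10 ± 1.11 CPM (log2 fold change 2.005) and HIST1H4E from 0.277 ± 0.112 to 2.36 ± 0.0485 CPM (3.10). Histone genes are near-identical copies whose mRNAs mostly end without a poly(A) tail, while the libraries were made from polyadenylated RNA.

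Other RNAs without a long poly(A) tail differed too. RN7SK, the noncoding RNA that holds back the elongation factor P-TEFb, was at 1.59, 2.54 and 1.16 CPM after GO-Rg3 and at 13.5, 10.998 and 6.98 CPM after GO-Rg3-DOX (log2 fold change 2.59, SE 0.34, edgeR adjusted p = 7e-06). The mitochondrial rRNA MT-RNR2 rose from 4322 ± 299 to 27015 ± 9206 CPM (log2 fold change 2.64) and MT-RNR1 from 1640.1 ± 222 to 8509.9 ± 2863 CPM (2.38). Small nucleolar RNA (snoRNA) genes, whose RNAs guide the modification of rRNA and lack a tail, went the other way. Of 66 tested 37 fell (56.1%) and 1 rose, with a median log2 fold change of -1.83. A snoRNA gene that was low after GO-Rg3-DOX could pass the filter through its level in other groups. These numbers therefore do not describe the members left out. For 56 of them a coding or long noncoding gene spanned the snoRNA on the same strand, and 48 of these 56 had a lower log2 fold change than that host. The median was -1.85 for the snoRNA genes and 0.18 for their 45 hosts, of which 9 fell and 6 rose. SNORD83A lies in an intron of RPL3, the gene of a ribosomal protein. SNORD83A was at 1.78, 3.34 and 2.83 CPM after GO-Rg3 and at 0.0824, 0.144 and 0.0763 CPM after GO-Rg3-DOX (log2 fold change -4.64, SE 0.37, edgeR adjusted p = 4.4e-08), while RPL3 was at 1346 ± 138 and 2421 ± 71.6 CPM (0.85). SNORA33 fell from 3.68 ± 0.775 to 0.705 ± 0.190 CPM (-2.38), while its host RPS12 was at 731 ± 141 and 1385 ± 106.2 CPM (0.92, and called at 1.04 without GO-Rg3 replicate 2). The snoRNA genes were low, 13 of the 56 with a mean of 1 CPM or more over the 6 samples, and 11 of these 13 fell.

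**Figure D4:**
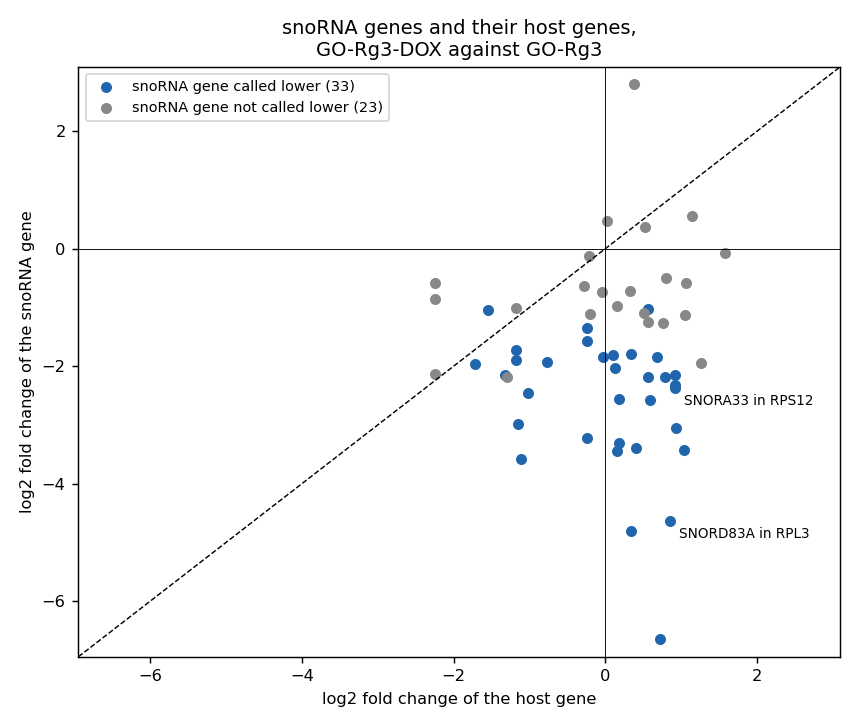
Log2 fold change of GO-Rg3-DOX against GO-Rg3 for 56 snoRNA genes (vertical axis) and for the host gene that spans each of them on the same strand (horizontal axis), with a dashed line where both are equal. The 33 snoRNA genes called lower (blue) have hosts on both sides of 0, and 48 of the 56 lie below the dashed line.

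Noncoding hosts of snoRNAs and other long noncoding RNAs were mixed. Of 16 SNHG and related host genes 7 fell (4 with the upper quartile) and 1 rose. SNHG7 fell from 53.9 ± 4.99 to 11.6 ± 1.61 CPM (log2 fold change -2.22), SNHG15 from 40.9 ± 4.98 to 9.88 ± 0.768 CPM (-2.05) and SNHG12 from 42.8 ± 4.68 to 14.6 ± 1.34 CPM (-1.55), while SNHG9 rose from 1.81 ± 0.346 to 4.59 ± 1.11 CPM (1.33). Among 122 LINC genes 9 rose and 18 fell, and among 301 antisense genes 37 rose and 38 fell, shares not above those of all genes. Both groups were drawn by gene name. LINC00511 fell from 36.2 ± 1.73 to 7.92 ± 0.331 CPM (-2.19). LINC00672, which the gene annotation lists as protein-coding despite its name, rose from 0.314 ± 0.0503 to 3.67 ± 0.261 CPM (3.52).

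The transcription machinery changed in both directions. Of 105 genes of RNA polymerase II, general factors and Mediator 10 rose and 30 fell (median -0.26), whereas with library totals 1 rose and with an offset for GC content 17 fell. POLR2A, the catalytic subunit of RNA polymerase II, was at 510.1, 443 and 481 CPM after GO-Rg3 and at 1477, 1332 and 1415 CPM after GO-Rg3-DOX. It rose in every sample (log2 fold change 1.56, SE 0.09, edgeR adjusted p = 2.2e-09). HEXIM1, the protein that works with RN7SK to hold P-TEFb, rose from 54.9 ± 9.57 to 116.2 ± 17.2 CPM (log2 fold change 1.08, or 0.96 and not called without GO-Rg3 replicate 2), and MED24 from 104.8 ± 19.8 to 251 ± 18.6 CPM (1.26). The Mediator subunits MED7 (-2.98) and MED9 (-1.94) and the TFIID subunit TAF4 (-1.47) fell. Among 122 enzymes that modify histones or remodel chromatin 38 fell and 4 rose (median -0.43), and 20 fell with an offset for length. The remodelling subunit gene ARID1B fell from 49.9 ± 2.05 to 12.4 ± 0.680 CPM (-2.01), SETD5 from 285 ± 24.1 to 76.9 ± 5.23 CPM (-1.89) and the acetyltransferase gene KAT7 from 55.02 ± 2.45 to 12.4 ± 1.79 CPM (-2.16), while CHD3 of the NuRD complex rose from 111.8 ± 2.96 to 267 ± 41.5 CPM (1.26). Of 71 splicing factor entries, pseudogenes included, 10 fell (14.1%, or 18 genes with library totals) and 2 rose, or 4 without GO-Rg3 replicate 2 and 8 with an offset for GC content. The 2 that rose, HNRNPA1P49 (1.47) and HNRNPA1P59 (2.02), are pseudogenes. PRPF38B fell from 106.96 ± 18.2 to 22.4 ± 4.14 CPM (-2.26) and SRSF2 from 242 ± 31.7 to 109.95 ± 1.08 CPM (-1.14).

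Chaperones and stress sensors were divided, and their shares lay near or below those of all genes. Of 25 heat shock genes 6 fell (24%) and 3 rose (12%), with a median of 0.03 (-0.41 and 10 fallen with library totals). DNAJB1, the HSP40 partner of HSP70, was at 208, 196 and 197 CPM after GO-Rg3 and at 17.8, 17.3 and 18.8 CPM after GO-Rg3-DOX, an 11.2-fold fall (log2 fold change -3.48, SE 0.09, edgeR adjusted p = 1.4e-12). HSPA8, the constitutive HSP70, lost the most CPM of all fallen genes, from 3079, 3366 and 3176 to 979.6, 928 and 1002 CPM (log2 fold change -1.73, SE 0.09, edgeR adjusted p = 5.4e-10). The regulator HSF2 fell from 18.8 ± 1.33 to 5.002 ± 1.06 CPM (log2 fold change -1.91), while HSPB1 rose from 75.8 ± 37.6 to 192 ± 34.5 CPM (1.34) and HSPA6, an inducible HSP70, from 0.856 ± 0.256 to 3.63 ± 0.0689 CPM (2.07). In the integrated stress response 7 of 33 genes fell (21.2%, or 11 genes with library totals) and 2 rose (6.06%). ATF4, its transcription factor, fell from 325 ± 8.79 to 111.7 ± 7.92 CPM (-1.54) and TRIB3 from 104 ± 15.2 to 21.7 ± 3.27 CPM (-2.26). Of 25 genes of the unfolded protein response in the endoplasmic reticulum 4 fell (16%) and 1 rose (4%). The number that rose was 11 with the upper quartile, 7 with an offset for GC content, 5 with one for length, and 2 to 4 with 1 sample left out. The transcription factor XBP1 fell from 364, 401 and 372 CPM to 87.4, 83.3 and 95.1 CPM (log2 fold change -2.10, SE 0.09, edgeR adjusted p = 1.4e-10), HERPUD1 (-2.13) and the sensor EIF2AK3 (-1.40) fell, and the chaperone HYOU1 rose (1.10). The groups' medians were 0.00 and 0.54.

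Many genes of plasma proteins rose. Of 55 plasma proteins made by hepatocytes 30 rose (54.5%, against 12.5% of all genes) and 1 fell, with a median log2 fold change of 1.05. This count depended on the scaling, since 7 rose with library totals (median 0.60) and 47 with the upper quartile (median 1.26). AGT, the precursor of angiotensin, was at 281, 204 and 247 CPM after GO-Rg3 and at 620.2, 614 and 611 CPM after GO-Rg3-DOX (log2 fold change 1.33, SE 0.10, edgeR adjusted p = 3.5e-08). AHSG rose from 133 ± 18.6 to 345 ± 7.94 CPM (log2 fold change 1.37) and plasminogen, PLG, from 56.1 ± 1.40 to 126.7 ± 4.45 CPM (1.17). ALB stood at 0.82 and AFP, the fetal albumin, at 0.58, and neither was called. APOC2 was the 1 member that fell (-1.42). Of 39 cytochrome P450 and conjugating enzymes 12 rose and none fell, among them CYP27B1 (1.64), and 4 rose with library totals.

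Antioxidant genes rose in part. Of 49 genes 15 rose (30.6%) and 1 fell, with a median of 0.84, whereas with library totals 1 rose and 6 fell (median 0.38). GPX3, a secreted glutathione peroxidase, was at 290.1, 256 and 261 CPM after GO-Rg3 and at 761, 614 and 606 CPM after GO-Rg3-DOX (log2 fold change 1.30, SE 0.12, edgeR adjusted p = 2.6e-07). The glutathione transferase gene GSTM3 rose from 3.07 ± 0.277 to 11.3 ± 0.622 CPM (log2 fold change 1.88) and PRDX2 from 166 ± 25.97 to 367 ± 31.4 CPM (1.14). HMOX1, the heme oxygenase that oxidants induce, fell from 83.4, 59.4 and 75.6 CPM to 41.5, 32.8 and 33.1 CPM (log2 fold change -1.03, SE 0.13, edgeR adjusted p = 4.5e-06). It lay near the threshold and was not called without GO-Rg3-DOX replicate 2 or 3 (-0.97 each), GO-Rg3 replicate 1 (-0.92) or, just short of the threshold, GO-Rg3 replicate 3.

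Among called genes the largest gains in CPM outside the mitochondrial genome were those of FTL, FN1, GAPDH, SERPINA1 and CLU. FTL, the ferritin light chain that stores iron, was at 3997, 3275 and 3595 CPM after GO-Rg3 and at 12707, 7921 and 8212 CPM after GO-Rg3-DOX (log2 fold change 1.41, SE 0.19, edgeR adjusted p = 1.1e-05). Fibronectin, FN1, rose from 3519 ± 219.8 to 7291 ± 717 CPM (log2 fold change 1.05) and the glycolytic enzyme gene GAPDH from 2976 ± 390.1 to 6003 ± 682 CPM (1.01). The protease inhibitor SERPINA1 had 1.29 and the extracellular chaperone CLU 1.31. None of these 5 was called with library totals. AFP, which was not called, gained more CPM than FN1, from 9540.0 ± 1221 to 14300.0 ± 3006 CPM. FN1 was at 0.97 and GAPDH at 0.91 without GO-Rg3-DOX replicate 1, and GAPDH at 0.92 without GO-Rg3 replicate 2, all below the threshold. The largest losses among called genes after HSPA8 were those of ARHGAP5 (-1.26), the Notch ligand JAG1 (-1.66), CXCL5 and the RNA helicase DDX17 (-1.69).

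Ribosomal protein and respiratory chain genes had moderate rises. Of 78 cytosolic ribosomal protein genes 26 rose (33.3%) and 1 fell (median 0.88), and 6 rose with library totals (median 0.43), 11 with an offset for length (median 0.45) and 13 without GO-Rg3-DOX replicate 1 (median 0.74). RPLP1 rose from 478 ± 90.9 to 1307 ± 92.5 CPM (log2 fold change 1.45), from a level lower than the 690.3 ± 53.8 CPM of untreated cells. The group's median after GO-Rg3 against untreated cells was -0.58, without any member called. The 1 that fell, RPL36A (-2.16), overlaps another gene. Of 77 nuclear-encoded subunits of the respiratory chain 21 rose and none fell (median 0.85), while 2 rose with library totals (median 0.39), 44 with the upper quartile and 6 with an offset for length. Their median after GO-Rg3 against untreated cells was -0.49, with 1 member called. COX8A rose from 40.5 ± 4.12 to 104.7 ± 18.2 CPM (1.37) and COX5B from 33.3 ± 2.42 to 84.2 ± 12.1 CPM (1.34), and against untreated cells they stood at 0.86 and 0.76, below the threshold. Of 15 mitochondrially encoded protein and rRNA genes 12 rose (median 1.37), or 5 with library totals and 7 with an offset for length. MT-CO1, a subunit of cytochrome c oxidase, was at 13347, 14195 and 14522 CPM after GO-Rg3 and at 60082, 36697 and 35892 CPM after GO-Rg3-DOX, with replicate 1 the highest (log2 fold change 1.66, SE 0.25, edgeR adjusted p = 2.7e-05). Without that replicate 9 of the mitochondrially encoded genes rose (median 1.06). The mitochondrial share of counts in samples given GO alone, stated above, overlapped that after GO-Rg3-DOX. Mitochondrial ribosomal protein genes stood in contrast to these, with 2 of 75 higher and 8 lower (median -0.01).

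The genes that the study named for GO-Rg3-DOX were chosen by it on the same 3 samples against untreated cells, so their direction here is not independent evidence. Of 24 genes 11 rose and 10 fell against GO-Rg3. BHLHE40, a repressor in the circadian clock, was at 71.1, 68.5 and 74.3 CPM after GO-Rg3 and at 9.27, 9.27 and 9.11 CPM after GO-Rg3-DOX (log2 fold change -2.95, SE 0.10, edgeR adjusted p = 2.3e-11). IRF2BP2 fell to 7.21 ± 1.21 CPM (log2 fold change -3.29), ETS2 to 17.9 ± 2.34 CPM (-2.50), NFIL3 to 10.53 ± 1.01 CPM (-2.42), ZNF281 to 13.1 ± 2.10 CPM (-2.67) and BRF2, a factor of RNA polymerase III, to 2.88 ± 0.372 CPM (-2.65). TNFAIP8, which restrains apoptosis, fell from 11.7 ± 0.970 to 2.25 ± 0.311 CPM (-2.37), and CDX2, ISX and XBP1 are described above. Among those that rose, HABP2, a plasma protease, went from 74.3 ± 4.13 to 211 ± 31.6 CPM (1.51), GSTM2 from 8.82 ± 1.10 to 23.6 ± 5.94 CPM (1.41), PRDX5 from 117.4 ± 20.1 to 277 ± 23.7 CPM (1.24) and TXNRD2 from 20.7 ± 4.57 to 44.6 ± 1.24 CPM (1.11). AZU1, an antimicrobial protein of neutrophils, rose to 2.08 ± 0.514 CPM, and the protease genes GZMM and CTSW to 0.510 ± 0.0207 and 0.577 ± 0.0818 CPM, all from 3 or fewer counts per GO-Rg3 sample. TNFSF14 rose to 0.866 ± 0.164 CPM and SOD3 from 0.0948 ± 0.0682 to 0.522 ± 0.266 CPM. SOD3 was not called without GO-Rg3-DOX replicate 1 (1.94), GO-Rg3 replicate 2 (2.43) or GO-Rg3 replicate 3 (1.94), and TXNRD2 not without GO-Rg3 replicate 2 (0.96). SPPL2B (0.998), DUOX1 (0.98) and CASP10 (0.14) were not called. SPPL2B passed without GO-Rg3-DOX replicate 1 (1.07), GO-Rg3 replicate 1 (1.22) or GO-Rg3 replicate 3 (1.05), and DUOX1 without GO-Rg3-DOX replicate 3 (1.10) or GO-Rg3 replicate 2 (1.12).

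Some markers of other cell types moved with the treatment. Of 12 blood cell markers 4 were tested, with a summed level of 124 CPM after GO-Rg3 and 146 CPM after GO-Rg3-DOX, most of it from LYZ, which was not called (121.3 ± 10.3 and 138 ± 23.2 CPM). The other 3 were low and rose, with the platelet chemokine PPBP from 0 counts to 1.60 ± 0.170 CPM, ITGAM from 1.69 ± 0.196 to 3.804 ± 0.0373 CPM and CD14 from 1.11 ± 0.271 to 3.28 ± 0.345 CPM. Of 8 fibroblast and muscle markers 5 were tested (6.00 and 14.5 CPM in sum) and 4 rose, PDGFRB among them from 2.55 ± 0.429 to 7.01 ± 1.46 CPM, and 2 rose without GO-Rg3-DOX replicate 1 or GO-Rg3 replicate 2. The endothelial marker CDH5 was tested and not called. A marker that was low after GO-Rg3 could pass the filter through its rise, so these numbers do not describe the markers left out. The part of such cells in the results was not tested.

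The calls were not spread evenly over genes of different structure. Across 13281 protein-coding genes the log2 fold change rose with the number of exons per 1000 bases of transcript, with a Spearman correlation of 0.37. The points are genes of the same 6 libraries and are no independent replicates. In the lowest of 10 equal bins, with at most 0.890 per 1000 bases, 41.4% fell and 7.67% rose, with a median log2 fold change of -0.78. In the highest bin, with at least 6.69 per 1000 bases, 4.14% fell and 24.5% rose, with a median of 0.63. Genes with 2 exons fell most often by exon number, 38.4% of 599. The Spearman correlation was 0.33 for the GC content of the transcript and -0.26 for its length over 16310 genes, and -0.15 for the span of the gene over 16622. In the lowest of 10 bins of GC content 28.3% fell and 1.84% rose, and in the highest 9.38% fell and 31.5% rose. Coding genes were then split at the median GC content. Among genes at or below the median GC content of 48.4%, the lowest of 5 bins of exons per base had a median log2 fold change of -0.79 and the highest 0.06, and above that GC content these medians were -0.37 and 0.78. Genes of the highest of 10 bins by span fell at a rate of 20.6%, close to the 18.1% of all genes, and rose at 3.73%. With an offset for GC content 2242 genes were higher and 2451 lower, and with one for transcript length 2211 and 2677.

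**Figure D5:**
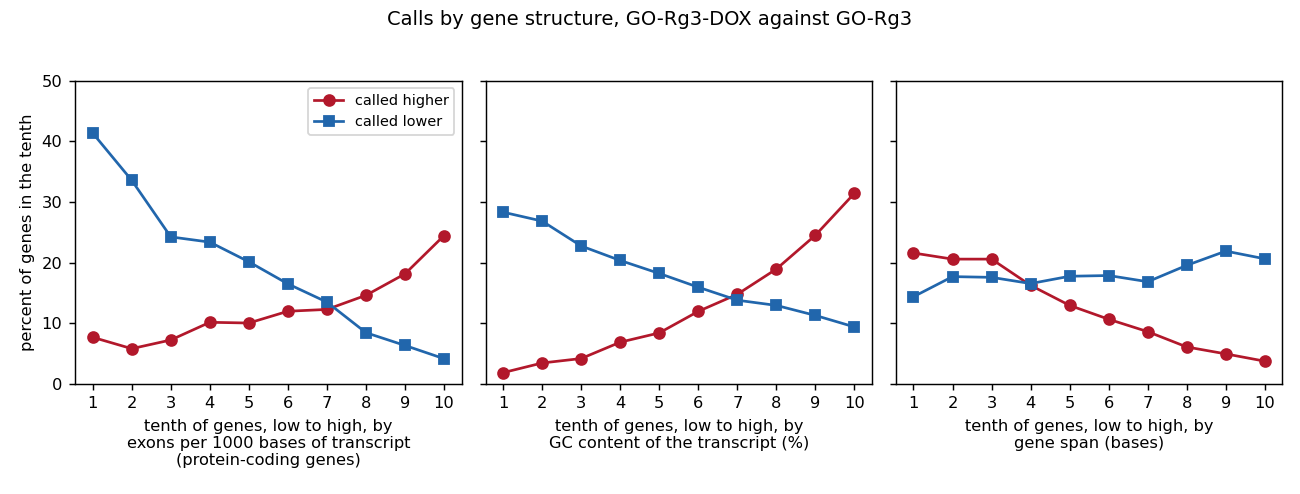
Percent of genes called higher (red) and lower (blue) in 10 equal bins of genes ordered from low to high by exons per 1000 bases of transcript (protein-coding genes), by GC content of the transcript and by gene span. The share called lower falls from 41.4% to 4.14% along the exon axis and from 28.3% to 9.38% along the GC axis, and the share called higher falls from 21.6% to 3.73% along the span axis.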

How the data were processed

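The authors prepared stranded libraries of polyadenylated RNA, mapped reads to GRCh37 with the NGI-RNAseq pipeline and assigned them to genes with featureCounts. These deposited raw counts carry no normalization. Counting options and annotation release are not given in the sources used here. Genes that reached 10 counts in 3 or more of the 12 samples were scaled by TMM and fitted over all 12 samples with the quasi-likelihood test of edgeR 4.0.16 in R 4.3.3, without a replicate block. Adjusted p-values are Benjamini-Hochberg values over the 17092 genes. The standard error (SE) is that of the log2 fold change, and ± is the SD of 3 samples. DESeq2 1.42.0 was an alternative, beside other scalings, filters, offsets for GC content and length (loess) and leaving out each of the 6 samples. The fit was tested on simulated data. Gene positions and structure were taken from a gene annotation lifted over to GRCh37, which gave the GC content of 95.4% of genes tested, and promoters from RefSeq (GRCh38.p14). The members and gene lists were chosen with earlier results of these data known. Genes were named by rule: the 10 largest rises and falls with non-overlapping ranges at 5 CPM or more, the 5 largest in CPM, the 5 leading genes silent in one group, up to 3 called members per list and direction, all genes of DOX targets and handling and all that the study named. Some genes that meet this rule are not reported here. Another 32 genes, such as SELE, CDKN1A and RPL3, and the exon measure were chosen after their values were seen.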

Additional observations from a re-analysis of the deposited data

How the results depend on the processing

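The numbers of overexpressed and under-expressed genes moved by more than 1.5 times with library totals alone (891 and 4986), with a test against a fold of 2 (625 and 1575), without a threshold on fold change (4685 and 5069) and, for overexpressed genes, at an adjusted p below 1e-04 (1296). They stayed within 1.5 times with the size factors of DESeq2, upper quartile scaling, mitochondrial genes left out, no or a stricter filter, DESeq2 itself (2316 and 2947), offsets for GC content or transcript length, and the 6 compared samples alone. Leaving out 1 sample at a time gave 1844 to 2302 overexpressed and 2938 to 3161 under-expressed genes. Of 52 gene lists 26 had a median above 0, and 16 with library totals.

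The replicate numbers occur in both groups, but deviations of same-numbered samples from their group means correlated at 0.12, 0.01 and 0.05, and 3 of the 6 samples correlated best with their own number, so the samples were not treated as paired. With the replicate number as a block 2172 genes were overexpressed and 3123 under-expressed. With the block in the 6 compared samples alone, an alternative chosen after seeing the data, they were 2045 and 3032.

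No called gene that is named here changed direction under any alternative. Calls ended, with the direction kept, for 40 named genes with library totals (all of them rises), 23 with an offset for length, 16 with one for GC content, 7 with the upper quartile and 7 without a filter. The log2 fold changes that did were of uncalled genes. With library totals they were -0.35 for TOP1, -0.095 for TOP2B, -0.072 for CBR1, -0.12 for XDH, -0.076 for ABCB1, -0.076 for ABCC1, -0.40 for ABCC2, -0.18 for ABCC6, -0.11 for ABCG2, -0.30 for CASP10 and -0.25 for LYZ. With the upper quartile they were 0.053 for TOP2A and 0.15 for TDP2. An offset for GC content gave 0.39 for TOP2A (0.40 with the block), 0.43 for TDP2 (0.43) and -0.033 for ABCC6 (-0.029). One for length gave 0.27 for TOP2A (0.28 with the block) and -0.032 for LYZ (-0.038). ABCC2 was at -0.033 without a filter and between -0.023 and 0.11 with 1 sample left out, and TDP2 between -0.16 and 0.038.

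Depth and design set limits. At 27802871 to 34690207 counts per sample 3 counts were 0.0772 to 0.124 CPM in these 6 libraries. Folds against groups at that floor are bounds for group means and not for single samples. With 3 samples per group a single value cannot reach a permutation p below 0.1. The drug and the carrier dose changed together, 1 time point was sampled, and all levels are shares of the RNA sequenced, so that an equal loss of all RNAs would not be seen.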

Other observations

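Further gene groups had shares of called members near or below those of all genes (12.5% higher and 18.1% lower), with large changes in single members. Of 27 genes of cholesterol synthesis and uptake 4 rose (14.8%) and 6 fell (22.2%, median 0.09, -0.35 with library totals), and 2 rose without GO-Rg3-DOX replicate 1 or GO-Rg3 replicate 2. SQLE, the squalene epoxidase, fell from 121.6 ± 5.05 to 22.8 ± 1.02 CPM (log2 fold change -2.41, SE 0.10, edgeR adjusted p = 1.3e-10). TM7SF2, a sterol reductase, rose from 13.1 ± 3.47 to 35.2 ± 2.64 CPM (1.42). AHR, the receptor of dioxins, fell from 111.4 ± 10.4 to 14.3 ± 1.89 CPM (-2.96) and NFE2L2, the regulator of antioxidant genes, from 198 ± 19.8 to 76.5 ± 3.17 CPM (-1.37). Of 26 hypoxia targets 5 fell (19.2%) and 1 rose (3.85%, or 3 genes without GO-Rg3-DOX replicate 2 or GO-Rg3 replicate 1), with PFKFB3, a driver of glycolysis, at -2.13 and EGLN1, an oxygen sensor, at -2.23. Of 21 clock genes 5 fell (23.8%) and none rose, NR1D1 among them (-1.87).

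Genes of the lysosome and of the matrix were among those that rose. Of 60 lysosome and autophagy genes 18 rose and 2 fell (median 0.66), and 1 rose with library totals. The cathepsins CTSA (1.25) and CTSB (1.24) rose. Of 40 integrins, laminins, collagens and related matrix genes 19 rose and 1 fell (median 0.97), and 4 rose with library totals. COL6A1 rose from 23.3 ± 7.99 to 77.4 ± 7.13 CPM (1.73) and COL4A5 from 27.4 ± 1.39 to 58.2 ± 3.97 CPM (1.09). Of 78 translation factors 4 rose and 8 fell (7 rose without GO-Rg3 replicate 1), of 36 proteasome subunits 2 rose and 0 fell, and of 9 metallothioneins and zinc carriers 0 rose and 2 fell. The translation factors that rose included the pseudogene EEF1DP1 (2.13).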
